A study of Mus musculus with 12 samples.

Results

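The antioxidant program under the transcription factor NRF2 was followed here through 10 genes. These were listed by name for their known roles in it, with earlier results of these data known. They were Nfe2l2, which encodes NRF2, its inhibitor Keap1, and the target genes Hmox1, Nqo1, Gclm, Gclc, Srxn1, Txnrd1, Prdx1 and Sod2. All 10 were found among the 55401 gene identifiers of the count files, and all 10 were among the 16451 genes with enough counts to be tested. Under resting conditions KEAP1 holds NRF2 in the cytoplasm and hands it to the ubiquitin machinery for degradation. Oxidants and electrophiles modify KEAP1, so that NRF2 escapes, enters the nucleus, pairs with small MAF proteins and binds antioxidant response elements upstream of genes for glutathione synthesis, thioredoxin recycling, heme breakdown and quinone reduction. NRF2 is thus controlled largely at the protein level, which RNA counts do not measure. In microglia, the resident macrophages of the brain, this program is known for tempering oxidative and inflammatory responses, and stroke with reperfusion is a classical source of oxidants.

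The libraries were bulk RNA-seq of CD45int CD11b+ microglia sorted by flow cytometry from the brains of male mice. All mice carried loxP-flanked Hdac3 alleles (HDAC3 loxp/loxp). WT mice had both Cx3cr1 alleles intact (CX3CR1 wt/wt), whereas HDAC3-miKO mice carried the tamoxifen-dependent recombinase CreER in 1 Cx3cr1 allele (CX3CR1 CreER/wt). Loss of HDAC3 and loss of 1 functional Cx3cr1 allele therefore cannot be told apart in these groups. Tamoxifen was given at an age of 6 to 8 weeks, and surgery followed at least 1 month later. Transient focal cerebral ischemia (tFCI), a model of ischemic stroke, was made by closing the left middle cerebral artery for 60 min, and Sham mice had the same operation with no occlusion. Cells were taken 3 days after tFCI. The 4 groups, each genotype under each surgery (WT-Sham, WT-tFCI, miKO-Sham, miKO-tFCI), had 3 libraries each, and each library pooled cells of 3 to 4 hemispheres. In each group replicate 1 was labelled batch 1 and replicates 2 and 3 were labelled batch 2.

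Counts assigned to genes ranged from 7697864 to 9452222 per library, with a median of 8226429.5. Hdac3, the deleted gene, stood at 34.98, 44.03 and 46.4 CPM (read counts scaled to library depth) in WT-Sham and at 25.8, 24.97 and 20.9 CPM in miKO-Sham. After tFCI it stood at 53.98, 52.9 and 43.9 CPM in WT and at 36.03, 27.1 and 28.9 CPM in miKO. It was lower in every miKO library than in every WT library of the same surgery, with a log2 difference of -0.81 ± 0.16 (SE, edgeR adjusted p = 0.00281) in Sham and -0.71 ± 0.16 (SE, edgeR adjusted p = 0.0127) after tFCI. One library stood apart from its label. In the other 3 groups the 2 libraries of batch 2 lay closest to each other, but miKO-Sham replicate 2, labelled batch 2, lay next to replicate 1 of batch 1, with a chi-square per degree of freedom of 2.88 between them (about 1 is the level of sampling noise), against 46.1 between replicates 2 and 3. The deposited files of replicates 1 and 2 also share a library code in their names, so miKO-Sham may hold fewer than 3 independent pools of mice, and p-values that rest on it may be too small. Calls among the 10 genes that changed without 1 of these libraries are given below. As alternatives chosen after seeing the data, replicate 2 was moved to batch 1, which changed no call among the 10 genes, and replicates 1 and 2 were averaged and counted as 1 sample, which lost none of their calls and added 1, Gclm for stroke in miKO. Without either library the 5 calls for genotype in Sham were also kept.

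Each gene was compared between groups with edgeR's quasi-likelihood test with batch as a covariate and Benjamini-Hochberg adjustment over all 16451 genes. A gene was called changed at an adjusted p below 0.05 and a log2 fold change beyond 0.58 in either direction. In WT mice, 6 of the 10 genes were higher after tFCI and 0 were lower, where 20.9% of all tested genes were called higher and 11.7% lower. In miKO mice, 6 were higher and 1 was lower after tFCI, against 21.9% and 13.9% of all genes. The same 6 genes rose with stroke in both genotypes, namely Hmox1, Nqo1, Srxn1, Txnrd1, Prdx1 and Sod2, and these comparisons share no library. Both calls of Nqo1 were lost when batch 2 was fitted alone. Between genotypes, 5 genes were higher in miKO-Sham than in WT-Sham and 0 were lower, against 8.58% and 6.8% of all genes. After tFCI, 4 were higher in miKO and 0 were lower, against 4.08% and 4.71% of all genes. Nfe2l2 was the fifth gene in Sham, while Gclm, Srxn1, Txnrd1 and Prdx1 were higher in miKO under both surgeries, again in comparisons that share no library. The median log2 fold change of the 10 genes was 1.05 for stroke in WT, 0.85 for stroke in miKO, 0.93 for genotype in Sham and 0.52 for genotype after tFCI, where the median over all genes lay between 0.02 and 0.04. For stroke in WT, 6 genes lay higher without overlap of the groups and 0 lower, where 26.9% and 22.9% of all genes did so. For stroke in miKO, 7 lay higher and 1 lower, against 26.5% and 21.6%. For genotype, 8 lay higher and 0 lower in Sham, against 17% and 16.2%, and 3 lay higher and 0 lower after tFCI, against 9.58% and 13.3%. Each stroke comparison does share a group with each genotype comparison, so their values are not independent of one another.

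**Figure D1:**
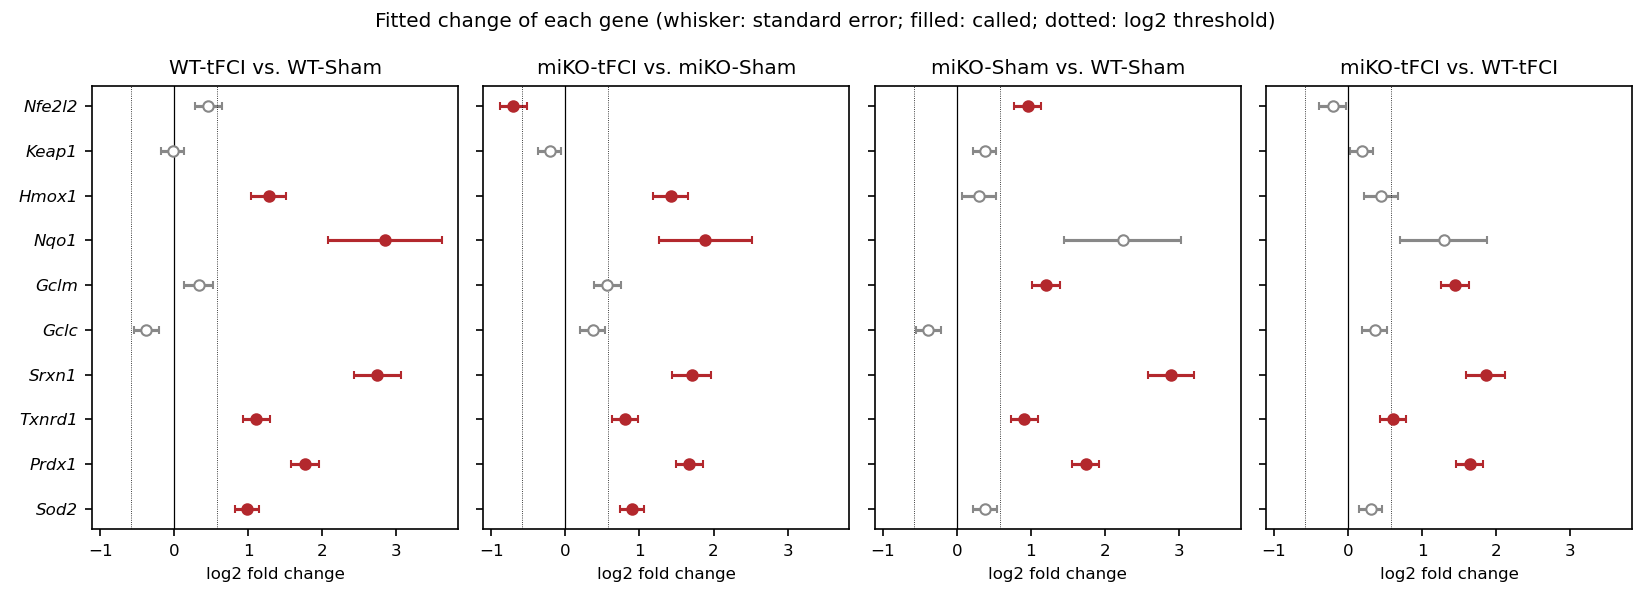
Fitted log2 fold change of the 10 genes in the 4 comparisons, with whiskers of 1 standard error and 3 libraries per group. Filled points were called, and dotted lines mark the log2 threshold of 0.58 in either direction. Srxn1 and Prdx1 lie beyond 1.6 in every panel, while Nfe2l2 is called higher in miKO-Sham and lower after stroke in miKO.

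A promoter sequence was at hand for 8 of the 10 genes, from RefSeq on build GRCm38.p6, as windows of 250 bases before to 50 bases after each annotated start. The core of the antioxidant response element, TGACNNNGC, was searched on both strands. It was present in 12.4% of the 32851 promoter windows of the mouse genome. Counted by gene, at least 1 window held it for 13.99% of 27025 genes, for 5 of these 8 genes and for 14 of 72 other pathway genes (19.4%). The 5 genes with a match included the 4 that were higher in miKO under both surgeries, so the windows of these 4 are shown, each read 5′ to 3′ on the gene's own strand with the match in capitals. In Prdx1 the match overlapped an AP-1 site, TGANTCA, a motif present in 7.81% of all windows. The Prdx1 window held another AP-1 site at -237, apart from its match, and the Srxn1 window held 2 outside its match. Prdx1 (chr4:116685349-116685648, plus strand), Srxn1 (chr2:152105274-152105573, plus strand), Gclm (chr3:122245307-122245606, plus strand) and the second of 3 annotated starts of Txnrd1 (chr10:82858956-82859255, plus strand) read as follows.
Prdx1: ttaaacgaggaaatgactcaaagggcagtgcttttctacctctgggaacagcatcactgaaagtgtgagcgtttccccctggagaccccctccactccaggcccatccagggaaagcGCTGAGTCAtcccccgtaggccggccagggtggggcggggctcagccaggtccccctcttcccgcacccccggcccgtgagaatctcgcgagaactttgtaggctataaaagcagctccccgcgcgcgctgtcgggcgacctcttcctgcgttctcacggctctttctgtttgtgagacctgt
Srxn1: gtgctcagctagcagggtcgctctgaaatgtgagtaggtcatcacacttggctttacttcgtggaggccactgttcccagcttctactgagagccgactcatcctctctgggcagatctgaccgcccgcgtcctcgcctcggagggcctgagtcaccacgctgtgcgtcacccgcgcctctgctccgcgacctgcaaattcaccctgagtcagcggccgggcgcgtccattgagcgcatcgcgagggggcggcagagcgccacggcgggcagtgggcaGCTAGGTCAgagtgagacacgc
Gclm: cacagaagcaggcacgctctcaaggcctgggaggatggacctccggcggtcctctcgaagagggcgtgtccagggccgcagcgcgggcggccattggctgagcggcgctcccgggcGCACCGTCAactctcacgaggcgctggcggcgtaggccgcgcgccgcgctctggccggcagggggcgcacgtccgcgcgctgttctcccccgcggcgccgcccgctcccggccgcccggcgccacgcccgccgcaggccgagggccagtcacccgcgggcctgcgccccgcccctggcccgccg
Txnrd1: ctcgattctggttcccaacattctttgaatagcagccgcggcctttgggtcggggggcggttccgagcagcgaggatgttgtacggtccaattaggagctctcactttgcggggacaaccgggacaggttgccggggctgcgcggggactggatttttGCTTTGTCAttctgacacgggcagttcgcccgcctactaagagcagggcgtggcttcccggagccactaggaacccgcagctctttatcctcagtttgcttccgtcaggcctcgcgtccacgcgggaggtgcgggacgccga
All 4 matches lay on the minus strand relative to the gene. They began at -133 in Prdx1, +29 in Srxn1, -134 in Gclm and -92 in Txnrd1, counted from the annotated start. The fifth gene with a match was Nfe2l2 itself, at -240. The windows of Nqo1, Keap1 and Sod2 held no match to these letters. A match describes the sequence only, and binding was not measured in these libraries.

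Nfe2l2, on chromosome 2 (75675513 to 75704641 on GRCm38, minus strand), stood at 316, 258 and 249.9 CPM in the WT-Sham libraries. It was higher in every miKO-Sham library, at 585, 561 and 457 CPM, a 1.94-fold difference with a log2 value of 0.96 ± 0.18 (SE, edgeR adjusted p = 0.00162). After tFCI the WT libraries held 307, 429 and 408 CPM and the miKO libraries 257, 351 and 385 CPM. These ranges overlapped, and the log2 difference between genotypes was -0.21 ± 0.18 (SE, edgeR adjusted p = 0.500). In miKO Nfe2l2 fell with stroke, with a log2 value of -0.70 ± 0.18 (SE, edgeR adjusted p = 0.00589) and no overlap. In WT the log2 change was 0.46 ± 0.18 (SE, edgeR adjusted p = 0.0540), short of the threshold, and it differed between batches, at -0.04 in batch 1 and 0.72 in batch 2. This rise in WT was called in 3 of 22 alternatives. They were batch 2 alone (log2 0.73, edgeR adjusted p = 0.00168) and the fits without WT-Sham replicate 1 or WT-tFCI replicate 1. Among the 10 genes, 0 had a genotype difference called larger and 1 a difference called smaller after tFCI than in Sham. This was Nfe2l2, with an interaction of -1.16 ± 0.25 (SE, edgeR adjusted p = 0.0189), a test in which 1.25% of all genes were called higher and 2.57% lower. The interaction was -1.15 in batch 1 and -1.18 in batch 2. Its call was lost when any 1 of 5 libraries was left out (WT-Sham replicates 2 or 3, miKO-Sham replicate 1, WT-tFCI replicates 2 or 3), with edgeR adjusted p up to 0.0755. Without miKO-Sham replicate 1, the fall with stroke in miKO had a log2 value of -0.57 (edgeR adjusted p = 0.0399), just inside the fold threshold. The call of that fall was also lost without miKO-tFCI replicate 1, and in batch 2 alone the log2 value was -0.50 (edgeR adjusted p = 0.0163).

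Keap1, on chromosome 9 (21229730 to 21239361, minus strand), encodes the sensor that keeps NRF2 low. It stood at 43.2, 52.4 and 53.5 CPM in WT-Sham, 55.9, 56.7 and 81.5 CPM in miKO-Sham, 49.6, 43.2 and 53.1 CPM in WT-tFCI, and at 46.6, 63.97 and 57.2 CPM in miKO-tFCI. It passed the test in none of the 4 comparisons, with edgeR adjusted p between 0.106 and 0.929. In Sham, each miKO library lay above each WT library, but the log2 difference of 0.38 did not pass. Keap1 shares 510 exon bases with Gm16754 on the opposite strand. The library kit does not mark strand, so reads from that stretch cannot be assigned to 1 of these genes.

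**Figure D2:**
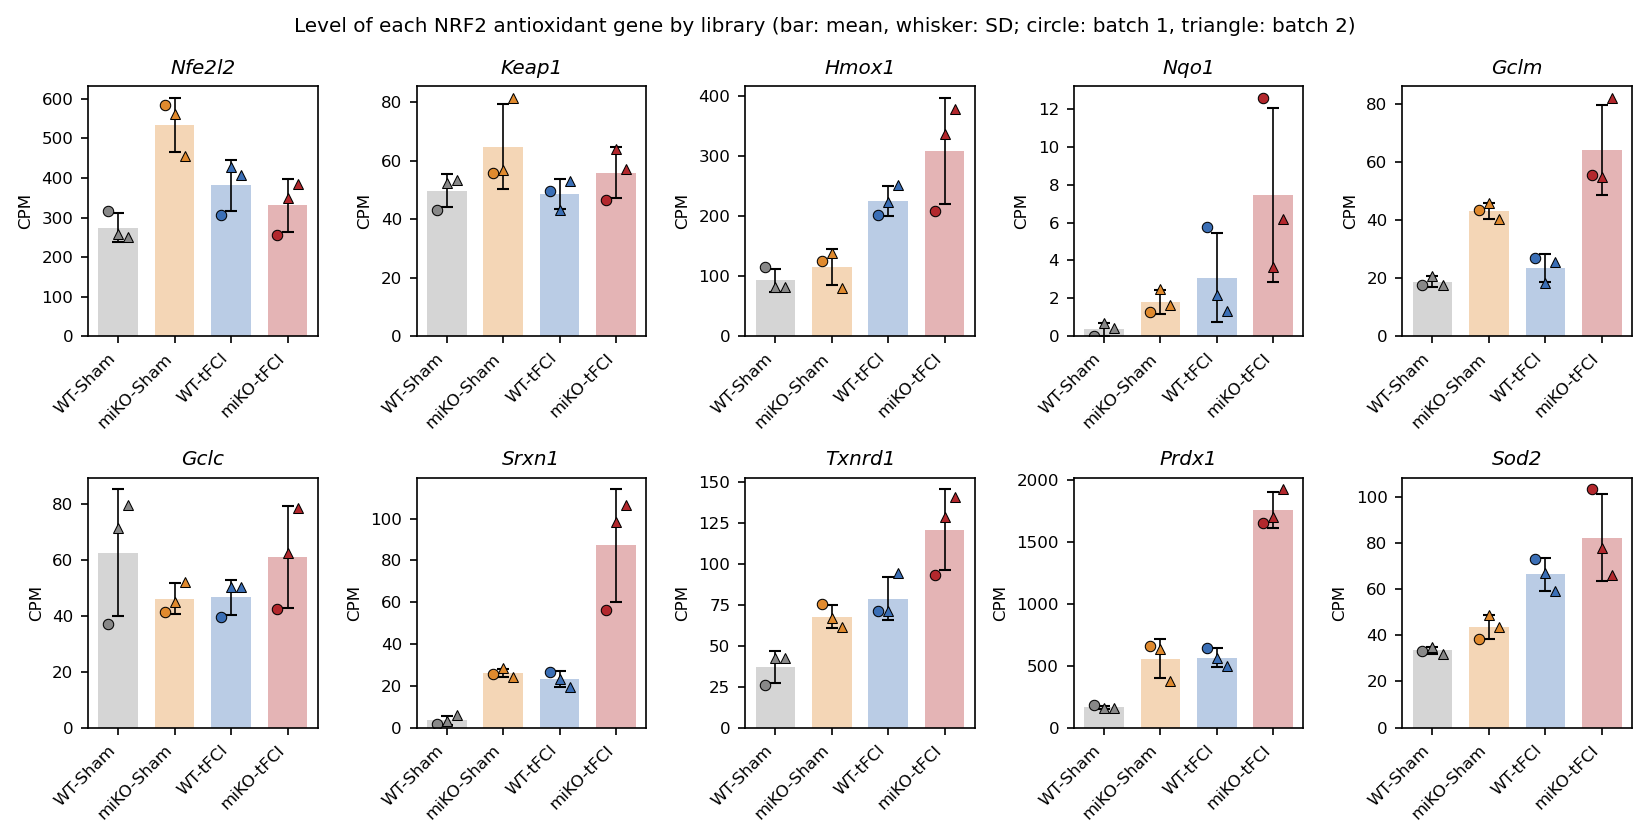
CPM of each gene in the 12 libraries, with bars for the group mean, whiskers for the SD (n = 3), circles for batch 1 and triangles for batch 2. Prdx1, Srxn1 and Gclm stand highest in miKO-tFCI with no overlap with another group, Nfe2l2 is highest in miKO-Sham, and the batch 1 circle is the highest point for Nqo1 in both tFCI groups.

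Hmox1, on chromosome 8 (75093621 to 75100589, plus strand), encodes heme oxygenase 1, which opens heme into biliverdin, carbon monoxide and iron. It stood at 116, 81.2 and 82.3 CPM in WT-Sham and 125, 138 and 80.7 CPM in miKO-Sham. After tFCI it reached 202, 223 and 253 CPM in WT and 209, 338 and 379 CPM in miKO. Stroke libraries lay above Sham libraries of the same genotype without overlap. Hmox1 rose 2.42-fold in WT (log2 1.27, SE 0.24, edgeR adjusted p = 0.000709) and 2.68-fold in miKO (log2 1.42, SE 0.24, edgeR adjusted p = 0.000283). The genotypes overlapped under both surgeries, and their log2 differences were 0.30 ± 0.23 (SE, edgeR adjusted p = 0.425) in Sham and 0.45 ± 0.23 (SE, edgeR adjusted p = 0.241) after tFCI. Of the 6 genes that rose with stroke, Hmox1 and Sod2 had the smallest genotype differences on the log2 scale.

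Nqo1, on chromosome 8 (107388225 to 107403206, minus strand), encodes a reductase that turns quinones into hydroquinones and is a standard marker of NRF2 activity. It was barely detected in these cells. The WT-Sham libraries held 0, 6 and 4 counts, and miKO-Sham held 9, 18 and 13 counts. After tFCI the counts were 48, 19 and 11 in WT and 122, 29 and 50 in miKO, or 5.75, 2.19 and 1.34 CPM and 12.6, 3.64 and 6.18 CPM. In both tFCI groups the batch 1 library was the highest. Nqo1 was called higher after stroke in WT (log2 2.84, SE 0.77, edgeR adjusted p = 0.00928) and in miKO (log2 1.89, SE 0.63, edgeR adjusted p = 0.0255), but the size rested on batch 1. The log2 difference was 4.64 in batch 1 and 1.35 in batch 2 for WT, and 3.11 in batch 1 and 1.13 in batch 2 for miKO. The WT call was lost without WT-tFCI replicate 1, and the miKO call was lost without any 1 of miKO-Sham replicates 1 or 3 and miKO-tFCI replicates 1 or 3 (highest edgeR adjusted p 0.142). In batch 2 alone both calls were lost, with an edgeR adjusted p of 0.0597 in WT and 0.101 in miKO. Between genotypes Nqo1 was not called, with log2 differences of 2.24 ± 0.79 (SE, edgeR adjusted p = 0.0650) in Sham, where the groups did not overlap, and 1.29 ± 0.59 (SE, edgeR adjusted p = 0.181) after tFCI. The difference in Sham was called without miKO-Sham replicate 1 (log2 2.73, edgeR adjusted p = 0.0335), without WT-Sham replicate 2, with no filter on low counts and by DESeq2, and the one after tFCI when only its own groups were fitted (log2 1.32, edgeR adjusted p = 0.0121). The libraries of tFCI replicate 1 also held the most endothelial and pericyte transcripts of their groups, with a summed level over 8 marker genes of 183 CPM in WT-tFCI, against 62.4 and 57.1 in replicates 2 and 3, and 310 CPM in miKO-tFCI, against 132 and 122. Astrocyte markers, 8 genes, summed to 302 CPM against 188 and 173 in WT-tFCI, and to 633 CPM against 222 and 249.6 in miKO-tFCI. Between genotypes these genes split. Slc1a3 was lower in miKO-tFCI, at 53.4 to 86.1 CPM, than in WT-tFCI, at 99.9 to 120 CPM. Gfap went the other way, at 88.1 to 251 against 29.1 to 79.4 CPM. Dendritic cell markers, 9 genes, summed to 139 CPM against 36.1 and 38.6 in WT-tFCI, and to 414 CPM against 98.03 and 99.4 in miKO-tFCI. Their part in the Nqo1 signal was not tested.

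Glutamate-cysteine ligase joins glutamate and cysteine on the way to glutathione. Its catalytic subunit is Gclc and its modifier subunit is Gclm. Gclm, on chromosome 3 (122245557 to 122270732, plus strand), stood at 17.4, 20.8 and 17.7 CPM in WT-Sham and 26.9, 18.1 and 25.3 CPM in WT-tFCI. Every miKO library was above every WT library, at 43.5, 45.6 and 40.2 CPM in miKO-Sham and 55.3, 54.7 and 81.9 CPM in miKO-tFCI. The genotype difference was 2.31-fold in Sham (log2 1.21, SE 0.19, edgeR adjusted p = 0.000433) and 2.72-fold after tFCI (log2 1.44, SE 0.19, edgeR adjusted p = 0.000290). Stroke in WT gave a log2 change of 0.33 ± 0.19 (SE, edgeR adjusted p = 0.195) with overlapping groups, and stroke in miKO gave 0.57 ± 0.18 (SE, edgeR adjusted p = 0.0224) with no overlap. The latter fell just short of the fold threshold and was called in 8 of 22 alternatives. Gclm shares 296 exon bases with Gm17494 on the opposite strand, which held 12 to 87 counts per library against 145 to 663 for Gclm, and 244 bases with Gm6061 on the same strand.

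Gclc, on chromosome 9 (77754535 to 77794485, plus strand), passed the test in none of the 4 comparisons. It stood at 36.9, 71.3 and 79.4 CPM in WT-Sham, 41.2, 44.8 and 52.1 CPM in miKO-Sham, 39.4, 50.2 and 50.1 CPM in WT-tFCI, and at 42.2, 62.3 and 78.5 CPM in miKO-tFCI. The batch 1 library was the lowest of each group, and all groups overlapped in the 4 comparisons. In batch 2 alone Gclc was called lower after stroke in WT and lower in miKO-Sham than in WT-Sham, where the log2 values over both batches were -0.38 (edgeR adjusted p = 0.0879) and -0.38 (edgeR adjusted p = 0.135). Its interaction was 0.75 ± 0.24 (SE, edgeR adjusted p = 0.108) and was not called, but it was called in batch 2 alone (log2 1.09, edgeR adjusted p = 0.0248) and without WT-Sham replicate 1 (log2 0.92, edgeR adjusted p = 0.0305).

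In the thioredoxin arm, Prdx1, Srxn1 and Txnrd1 were called higher in all 4 comparisons, as were 0.815% of all tested genes, though the call of Txnrd1 for genotype after tFCI was lost in 9 of 22 alternatives. Peroxiredoxins reduce peroxides through a cysteine that becomes oxidised in the act. Thioredoxin returns it to the reduced form with electrons from thioredoxin reductase, and sulfiredoxin rescues peroxiredoxin that has been oxidised too far. Prdx1, the cytosolic peroxiredoxin (chromosome 4, 116685544 to 116700822, plus strand), stood at 179.6, 159 and 158 CPM in WT-Sham. It stood at 655, 638 and 375 CPM in miKO-Sham and 641, 562 and 495 CPM in WT-tFCI, which overlapped each other, and at 1649, 1699.7 and 1923 CPM in miKO-tFCI. Each of the other 3 groups lay wholly above WT-Sham, and miKO-tFCI lay wholly above all. Stroke raised Prdx1 3.41-fold in WT and 3.19-fold in miKO, with log2 values of 1.77 ± 0.19 (SE, edgeR adjusted p = 4.76e-06) and 1.67 ± 0.18 (SE, edgeR adjusted p = 8.29e-06). The genotype difference was 3.35-fold in Sham and 3.13-fold after tFCI, with log2 values of 1.74 ± 0.19 (SE, edgeR adjusted p = 1.23e-05) and 1.65 ± 0.18 (SE, edgeR adjusted p = 7.62e-05). The interaction on the log2 scale was -0.10 ± 0.26 (SE, edgeR adjusted p = 0.897), near 0 with a sign that turned in some alternatives. All 4 calls of Prdx1 were kept in every alternative fitted.

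Srxn1, the sulfiredoxin gene (chromosome 2, 152105516 to 152111376, plus strand), was lowest in WT-Sham at 1.56, 3.14 and 5.85 CPM. It stood at 25.4, 28.3 and 24.3 CPM in miKO-Sham, 26.7, 23.4 and 19.3 CPM in WT-tFCI, and at 56.5, 98.4 and 106 CPM in miKO-tFCI. As for Prdx1, miKO-Sham and WT-tFCI overlapped each other and miKO-tFCI lay above all. The genotype difference was 7.43-fold in Sham (log2 2.89, SE 0.32, edgeR adjusted p = 1.46e-05) and 3.62-fold after tFCI (log2 1.86, SE 0.27, edgeR adjusted p = 0.000522). Stroke went with a log2 rise of 2.74 ± 0.32 (SE, edgeR adjusted p = 1.14e-05) in WT and 1.71 ± 0.26 (SE, edgeR adjusted p = 0.000148) in miKO. The interaction was -1.03 ± 0.41 (SE, edgeR adjusted p = 0.198) and was not called, except with no filter on low counts (log2 -1.05, edgeR adjusted p = 0.0118), and it differed between batches, at -2.76 in batch 1 and -0.29 in batch 2. WT-Sham replicate 1 held 13 counts of Srxn1, so the batch 1 value has a wide counting error. All 4 calls of Srxn1 were kept in every alternative fitted.

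Txnrd1, the cytosolic thioredoxin reductase (chromosome 10, 82833951 to 82897712, plus strand), stood at 25.8, 42.2 and 42.6 CPM in WT-Sham and 75.2, 66.6 and 61.1 CPM in miKO-Sham. After tFCI it stood at 70.9, 71.3 and 94.1 CPM in WT and 93.2, 128 and 141 CPM in miKO. Stroke raised it by a log2 value of 1.11 ± 0.18 (SE, edgeR adjusted p = 0.000247) in WT and 0.80 ± 0.18 (SE, edgeR adjusted p = 0.00222) in miKO, without overlap. The genotype difference in Sham was 0.91 ± 0.18 (SE, edgeR adjusted p = 0.00257) on the log2 scale, also without overlap. After tFCI it was 0.60 ± 0.18 (SE, edgeR adjusted p = 0.0422), the genotypes overlapped, and the call was lost in 9 of 22 alternatives, among them the fit with no batch term and those without any 1 of the 3 WT-tFCI libraries (highest edgeR adjusted p 0.204).

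Sod2, on chromosome 17 (13006846 to 13040063, plus strand), encodes the mitochondrial superoxide dismutase, which turns superoxide into hydrogen peroxide and is induced by inflammatory signals as well as by NRF2. It stood at 33.3, 34.96 and 32.01 CPM in WT-Sham and 38.3, 48.8 and 43.7 CPM in miKO-Sham. After tFCI it stood at 73.01, 66.8 and 59.1 CPM in WT and 103, 77.8 and 66.00 CPM in miKO. All tFCI libraries lay above all Sham libraries. The rise was 1.98-fold in WT (log2 0.98, SE 0.16, edgeR adjusted p = 0.000249) and 1.87-fold in miKO (log2 0.90, SE 0.16, edgeR adjusted p = 0.000446). In Sham the miKO libraries lay above the WT libraries, but neither genotype difference passed, with log2 values of 0.39 ± 0.16 (SE, edgeR adjusted p = 0.115) in Sham and 0.31 ± 0.16 (SE, edgeR adjusted p = 0.233) after tFCI.

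Set side by side, the genotype difference of Gclm, Prdx1, Srxn1 and Txnrd1 was present in Sham as well as after tFCI, and none of these 4 had an interaction that passed the test with the filter on low counts (edgeR adjusted p 0.198 to 0.897). A missed threshold does not show that the differences were equal under both surgeries. Their interactions on the log2 scale were 0.24 ± 0.27, -0.10 ± 0.26, -1.03 ± 0.41 and -0.31 ± 0.25 (SE). Nfe2l2 mRNA was higher in miKO in Sham, where the log2 value was 0.96, and not after tFCI, where the log2 value was -0.21 while the 4 target genes were called higher in miKO, Txnrd1 with the unstable call given above.

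**Figure D3:**
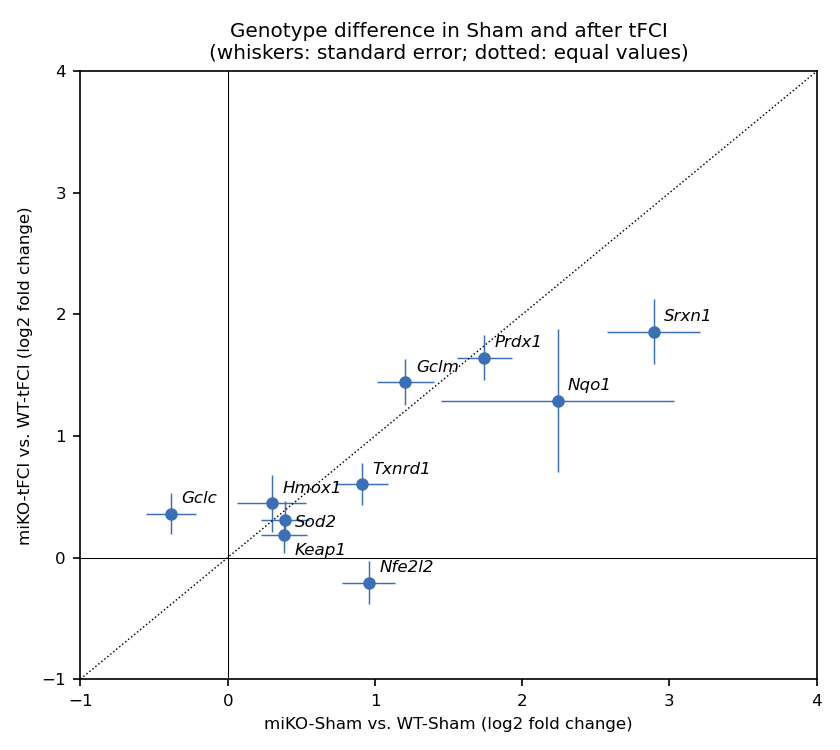
Genotype difference (miKO against WT, log2 fold change) in Sham on the horizontal axis and after tFCI on the vertical axis, for the 10 genes, with whiskers of 1 standard error and a dotted line of equal values. Prdx1 and Gclm lie near the line, Srxn1 lies below it at 2.89 and 1.86, and Nfe2l2 lies at 0.96 and -0.21.

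Between genes, levels can be compared per kilobase of exon. In WT-Sham Nfe2l2 was the highest at 72.4 CPM per kilobase, ahead of Prdx1 at 54.4 and Hmox1 at 53.1, which hardly differed. In WT-tFCI the order was Prdx1 at 186, Hmox1 at 129 and Nfe2l2 at 100.5 CPM per kilobase, and in miKO-tFCI it was Prdx1 at 577, Hmox1 at 176 and Nfe2l2 at 87.1. In miKO-Sham Prdx1 stood at 183 and Nfe2l2 at 141 CPM per kilobase. Srxn1 moved from the ninth place in WT-Sham, at 1.25 CPM per kilobase, to the fourth in miKO-tFCI, at 30.9. Nqo1 was the lowest in every group, at 0.232 to 4.81 CPM per kilobase.

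The wider pathway was read from 87 other genes in 6 lists, of which 82 were tested. In WT, 36 were higher and 7 lower after stroke, against 20.9% and 11.7% of all tested genes. In miKO, 33 were higher and 8 lower, against 21.9% and 13.9%. miKO-Sham held 24 higher and 3 lower than WT-Sham, against 8.58% and 6.8%. miKO-tFCI held 25 higher and 2 lower than WT-tFCI, where 4.08% of all genes were called higher and 4.71% lower. These 27 calls after tFCI fell to 13 with no batch term, to 17 without WT-tFCI replicate 2 and to 15 without WT-tFCI replicate 3. The medians of the 82 log2 changes were 0.51 and 0.49 for stroke in WT and miKO, and 0.27 and 0.31 for genotype in Sham and after tFCI. Of the 24 genes higher in miKO-Sham, 14 (58.3%) were also among the 25 higher in miKO-tFCI (56%). Over all genes, 298 were higher in miKO under both surgeries, 21.1% of the 1411 called in Sham and 44.4% of the 671 called after tFCI.

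Among the 18 tested genes of glutathione handling, 11 were higher and 1 lower after stroke in WT (20.9% and 11.7% of all genes). In miKO the counts were 12 and 1 (21.9% and 13.9%). In miKO-Sham against WT-Sham they were 5 and 0 (8.58% and 6.8%), and in miKO-tFCI against WT-tFCI 8 and 0 (4.08% and 4.71%). Slc7a11, the cystine importer that feeds glutathione synthesis, stood at 2.52, 1.79 and 2.26 CPM in WT-Sham, 10.4, 14.3 and 8.07 CPM in miKO-Sham, 76.2, 27.01 and 24.7 CPM in WT-tFCI, and at 165, 86.97 and 94.5 CPM in miKO-tFCI. The 4 groups did not overlap, and the genotype difference was 2.35 ± 0.35 (SE, edgeR adjusted p = 0.000269) on the log2 scale in Sham and 1.53 ± 0.25 (SE, edgeR adjusted p = 0.00173) after tFCI. Gsr, glutathione reductase, differed between genotypes by a log2 value of 1.70 ± 0.22 (SE, edgeR adjusted p = 8.00e-05) in Sham and 1.42 ± 0.21 (SE, edgeR adjusted p = 0.000631) after tFCI. Gpx3, a secreted glutathione peroxidase, rose with stroke by a log2 value of 5.72 ± 0.51 (SE, edgeR adjusted p = 1.20e-06) in miKO, reaching 549.8, 172 and 193 CPM. Ggt5, a gamma-glutamyl transferase, fell with stroke in WT (log2 -1.13, edgeR adjusted p = 7.12e-05) and in miKO (log2 -1.20, edgeR adjusted p = 5.30e-05). Mgst1, a microsomal glutathione transferase, was higher in miKO-tFCI than in WT-tFCI by a log2 value of 1.93 ± 0.51 (SE, edgeR adjusted p = 0.0277). In both tFCI groups Slc7a11, Gpx3 and Mgst1 were highest in replicate 1, the libraries richest in endothelial and astrocyte markers.

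Of the 17 genes for thioredoxin and peroxide removal, 8 were higher and 2 lower after stroke in WT (20.9% and 11.7% of all genes). In miKO the counts were 6 and 2 (21.9% and 13.9%). In miKO-Sham against WT-Sham they were 6 and 0 (8.58% and 6.8%), and after tFCI 5 and 0 (4.08% and 4.71%). Txn1, the cytosolic thioredoxin, was higher in miKO by a log2 value of 0.92 ± 0.19 (SE, edgeR adjusted p = 0.00393) in Sham and 0.63 ± 0.19 (SE, edgeR adjusted p = 0.0456) after tFCI, with overlapping groups both times. Msrb1, a methionine sulfoxide reductase, was higher in miKO by a log2 value of 0.94 ± 0.28 (SE, edgeR adjusted p = 0.0290) in Sham and 1.29 ± 0.22 (SE, edgeR adjusted p = 0.00216) after tFCI. Txnip, which binds and inhibits thioredoxin, fell with stroke from 1313 ± 117 to 387 ± 13.7 CPM (SD, n = 3) in WT and from 1110.2 ± 179.8 to 348 ± 52.6 CPM in miKO. The corresponding log2 values were -1.76 ± 0.16 (SE, edgeR adjusted p = 1.16e-06) and -1.67 ± 0.16 (SE, edgeR adjusted p = 2.43e-06). Sod3, the extracellular superoxide dismutase, was called higher in all 4 comparisons, but in Sham it was near the floor. It stood at 0.481, 0.336 and 0.205 CPM in WT-Sham and 2.22, 1.80 and 0.897 CPM in miKO-Sham. In the tFCI groups it stood at 19.03, 4.62 and 2.80 CPM in WT and 64.1, 11.6 and 11.5 CPM in miKO, again highest in replicate 1.

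NADPH, which powers glutathione and thioredoxin reductases, is supplied largely by the pentose phosphate pathway. Of 10 genes for NADPH supply, 5 were higher and 1 lower after stroke in WT (20.9% and 11.7% of all genes). In miKO the counts were 4 and 0 (21.9% and 13.9%). In miKO-Sham against WT-Sham they were 4 and 1 (8.58% and 6.8%), and after tFCI 5 and 0 (4.08% and 4.71%). Of 5 enzymes of the pentose phosphate pathway, G6pdx, Pgd and Taldo1 were higher in miKO under both surgeries. The other two were not called for genotype, with log2 values of 0.23 in Sham and -0.044 after tFCI for Pgls, and 0.058 in Sham and -0.36 after tFCI for Tkt. Taldo1, which encodes transaldolase, stood at 130.2, 119 and 109 CPM in WT-Sham and 386, 366 and 306 CPM in miKO-Sham, a log2 difference of 1.56 ± 0.13 (SE, edgeR adjusted p = 1.34e-06). After tFCI it stood at 198, 188 and 166 CPM in WT and 304, 321 and 321 CPM in miKO, a log2 difference of 0.78 ± 0.13 (SE, edgeR adjusted p = 0.00154). Idh2, the mitochondrial isocitrate dehydrogenase, was lower in miKO-Sham than in WT-Sham (log2 -0.64, SE 0.15, edgeR adjusted p = 0.00764) and was the gene of this list that fell with stroke in WT. Me1, the cytosolic malic enzyme, was called higher in miKO-tFCI than in WT-tFCI (log2 2.25, SE 0.61, edgeR adjusted p = 0.0306) with overlapping groups and values of 24.7, 3.52 and 5.81 CPM in miKO-tFCI.

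Among 9 tested genes of heme and iron handling, 2 were higher and 1 lower after stroke in WT (20.9% and 11.7% of all genes). In miKO the counts were 2 and 2 (21.9% and 13.9%), so the stroke counts of this list were near the shares of all genes. In miKO-Sham against WT-Sham they were 5 and 0 (8.58% and 6.8%), and after tFCI 3 and 0 (4.08% and 4.71%). Fth1, the ferritin heavy chain, was higher in miKO by a log2 value of 1.93 ± 0.20 (SE, edgeR adjusted p = 1.15e-05) in Sham and 1.20 ± 0.20 (SE, edgeR adjusted p = 0.00175) after tFCI. Blvrb, a biliverdin reductase, was higher in miKO by a log2 value of 2.23 ± 0.22 (SE, edgeR adjusted p = 5.22e-06) in Sham and 1.11 ± 0.21 (SE, edgeR adjusted p = 0.00422) after tFCI. Slc40a1, the iron exporter ferroportin, fell with stroke, with log2 values of -1.29 ± 0.25 (SE, edgeR adjusted p = 0.000963) in WT and -1.53 ± 0.25 (SE, edgeR adjusted p = 0.000246) in miKO. Summed red cell markers, 6 genes, lay at 4.41 to 17.5 CPM in WT-Sham, 22.03 to 68.4 in miKO-Sham, 6.21 to 31.5 in WT-tFCI and 4.78 to 29.3 in miKO-tFCI. Their part in the genotype differences in Sham was not tested.

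Of 14 tested detoxification genes, 8 were higher and 0 lower after stroke in WT (20.9% and 11.7% of all genes). In miKO the counts were 7 and 1 (21.9% and 13.9%). In miKO-Sham against WT-Sham they were 3 and 2 (8.58% and 6.8%), and after tFCI 4 and 0 (4.08% and 4.71%). Osgin1, an oxidative stress-induced growth inhibitor, was higher in miKO at 73.6, 76.6 and 54.8 CPM in Sham, against 8.65, 13.7 and 9.13 in WT-Sham, and at 30.3, 43.9 and 35.96 CPM after tFCI, against 12.1, 9.81 and 12.4 in WT-tFCI. Its log2 differences were 2.71 ± 0.21 (SE, edgeR adjusted p = 7.93e-07) and 1.67 ± 0.21 (SE, edgeR adjusted p = 0.000206), and it fell with stroke in miKO (log2 -0.91, SE 0.20, edgeR adjusted p = 0.00187). Cyp4f18, a cytochrome P450 that acts on leukotriene B4, stood at 2.16, 1.34 and 1.74 CPM in WT-Sham and 56.4, 47.4 and 24.98 CPM in miKO-Sham, and at 71.7, 73.4 and 79.7 CPM in WT-tFCI. Stroke raised it by a log2 value of 5.42 ± 0.28 (SE, edgeR adjusted p = 5.56e-09) in WT. Akr1b8, an aldo-keto reductase, was near 0 in both Sham groups and stood at 10.2, 1.96 and 2.19 CPM in WT-tFCI, and at 17.96, 11.3 and 9.52 CPM in miKO-tFCI. Ptgr1, a prostaglandin reductase and NRF2 target, was lower in miKO-Sham than in WT-Sham (log2 -1.14, SE 0.22, edgeR adjusted p = 0.00198) and rose with stroke in both genotypes. Ugt1a6a, a glucuronosyltransferase whose exons are partly shared with its gene family, was the other gene called lower, at 0.491 ± 0.306 against 2.75 ± 1.17 CPM (SD, n = 3).

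Of 14 partners and regulators of NRF2, 2 were higher and 2 lower after stroke in each genotype. Over all genes the shares were 20.9% and 11.7% in WT, and 21.9% and 13.9% in miKO. In miKO-Sham against WT-Sham 1 was higher and 0 were lower (8.58% and 6.8%). In miKO-tFCI against WT-tFCI 0 were higher and 2 lower (4.08% and 4.71%). The gene higher in miKO-Sham was Sqstm1 (log2 1.41, SE 0.16, edgeR adjusted p = 2.12e-05), whose product p62 traps KEAP1. The 2 lower in miKO-tFCI were Maff (log2 -1.50, SE 0.20, edgeR adjusted p = 0.000333) and Mafk (log2 -0.62, SE 0.13, edgeR adjusted p = 0.00958), small MAF partners of NRF2. Maff stood at 39.1, 38.3 and 43.01 CPM in WT-tFCI, and at 19.5, 12.7 and 11.1 CPM in miKO-tFCI, and at 11.7, 11.8 and 10.6 CPM in WT-Sham. Bach2, a repressor of the NRF2 family's targets, fell with stroke in WT (log2 -0.70, edgeR adjusted p = 0.000986) and in miKO (log2 -1.03, edgeR adjusted p = 4.20e-05).

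**Figure D4:**
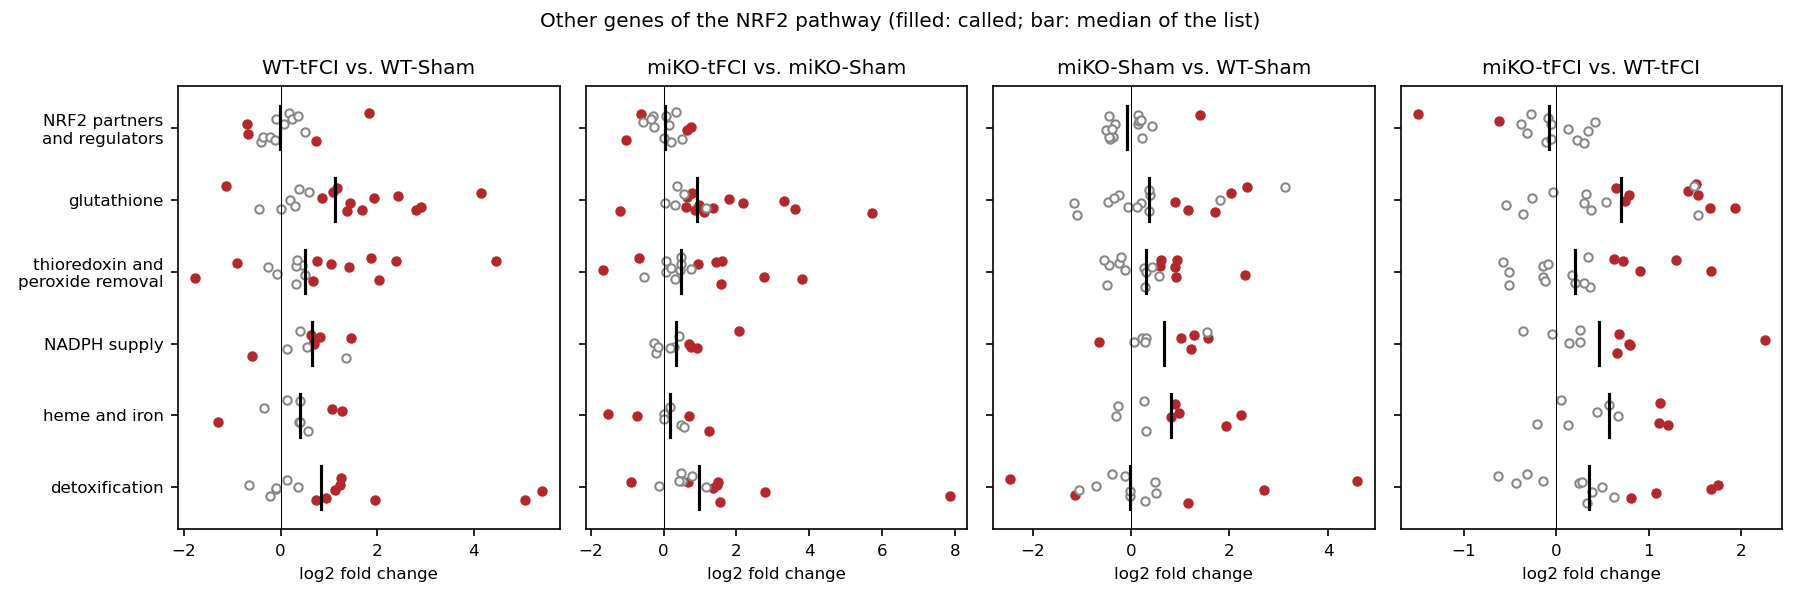
Log2 fold change of 82 other genes of the NRF2 pathway in the 4 comparisons, 1 point per gene in 6 lists, with filled points for called genes and a black bar for the list median. Horizontal axes differ between panels. After stroke the glutathione list has medians of 1.13 in WT and 0.91 in miKO, while the list of partners and regulators stays near 0 in all panels.

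Markers of the labelled cell type were abundant, Csf1r among them, and 13 microglial genes summed to 11217 CPM or more in every library. Cx3cr1 is among these 13 genes, and miKO mice carried CreER in 1 of its alleles. The part of Cx3cr1 in the sum was not tested. The summed level moved with the groups. It ranged from 31191 to 41182 CPM in WT-Sham, 29081 to 34909.9 in miKO-Sham, 22076 to 24477 in WT-tFCI and 11217 to 21412 in miKO-tFCI. Monocyte and macrophage markers, 13 genes, moved the other way, at 52.2 to 117, 81.0 to 220.4, 473 to 879 and 816 to 1592 CPM in the same order. That list was led by Fn1 and Chil3, and S100a4 was at 0 in miKO-Sham. Fn1 itself ranged lower in miKO-tFCI, at 122 to 358 CPM, than in WT-tFCI, at 296 to 446 CPM, with overlap. Chil3 went the other way, at 239 to 311 against 44.5 to 117 CPM. Of 12 tested genes of that list, 6 were called higher and 0 lower in miKO-tFCI than in WT-tFCI (4.08% and 4.71% of all genes). Markers of border-associated macrophages, 10 genes, lay at 587 to 725 CPM in WT-Sham, 1458 to 1691 in miKO-Sham, 729 to 1059 in WT-tFCI and 1049 to 2227 in miKO-tFCI. Stab1 led that list. Neutrophil markers, 11 genes led by Csf3r, lay at 637 to 1389, 1107 to 1147, 497 to 591 and 937 to 1267 CPM. Csf3r itself was lower in miKO-tFCI, at 231 to 283 CPM, than in WT-tFCI, at 338 to 375 CPM. S100a8 went the other way, at 264 to 333 against 54.9 to 64.8 CPM. Of 10 tested neutrophil genes, 6 were called higher and 0 lower in miKO-tFCI than in WT-tFCI (4.08% and 4.71% of all genes). Their median log2 value was 2.27. The 17 genes induced by tissue dissociation fell from 44056 to 47784 CPM in WT-Sham to 28648 to 30133 in miKO-Sham, 17904 to 19920 in WT-tFCI and 9890 to 12459 in miKO-tFCI. Prdx1 and Srxn1 were lowest in WT-Sham and highest in miKO-tFCI, the groups in which the dissociation genes were highest and lowest. The library with the most monocyte, dendritic, endothelial and astrocyte transcripts was miKO-tFCI replicate 1. Among the 3 miKO-tFCI libraries it was the highest for Nqo1 and Sod2, the middle one for Gclm and the lowest for the other 7 genes. In batch 2 alone, which leaves out every replicate 1, Hmox1, Srxn1, Txnrd1, Prdx1 and Sod2 were called higher after stroke in both genotypes. Nqo1 was called in neither. After stroke in WT, Nfe2l2 was also called higher there and Gclc lower (log2 -0.58). After stroke in miKO, Gclm was also called higher, and the fall of Nfe2l2 was not called. For genotype in Sham the 5 calls of the full fit were kept, and Gclc was called lower (log2 -0.64). For genotype after tFCI the same 4 genes were called. B cell markers lay at 437 to 538 CPM in WT-Sham and 185 to 204 CPM in miKO-tFCI. Most of that sum was Ighm, at 385 to 482 CPM in WT-Sham and 134 to 147 CPM in miKO-tFCI. Cd22 went the other way, at 8.53 to 9.19 CPM in WT-Sham and 28.6 to 47.7 CPM in miKO-tFCI. Oligodendrocyte markers lay at no more than 334 CPM, neuronal markers at no more than 16.1 CPM and T and NK cell markers at no more than 14.97 CPM in any library, with Ncr1 at no more than 3 counts. The part of other cell types, and of dissociation, in the changes of the 10 genes was not tested. In bulk libraries a change in the share of cells of a type and a change of RNA per cell cannot be told apart.

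**Figure D5:**
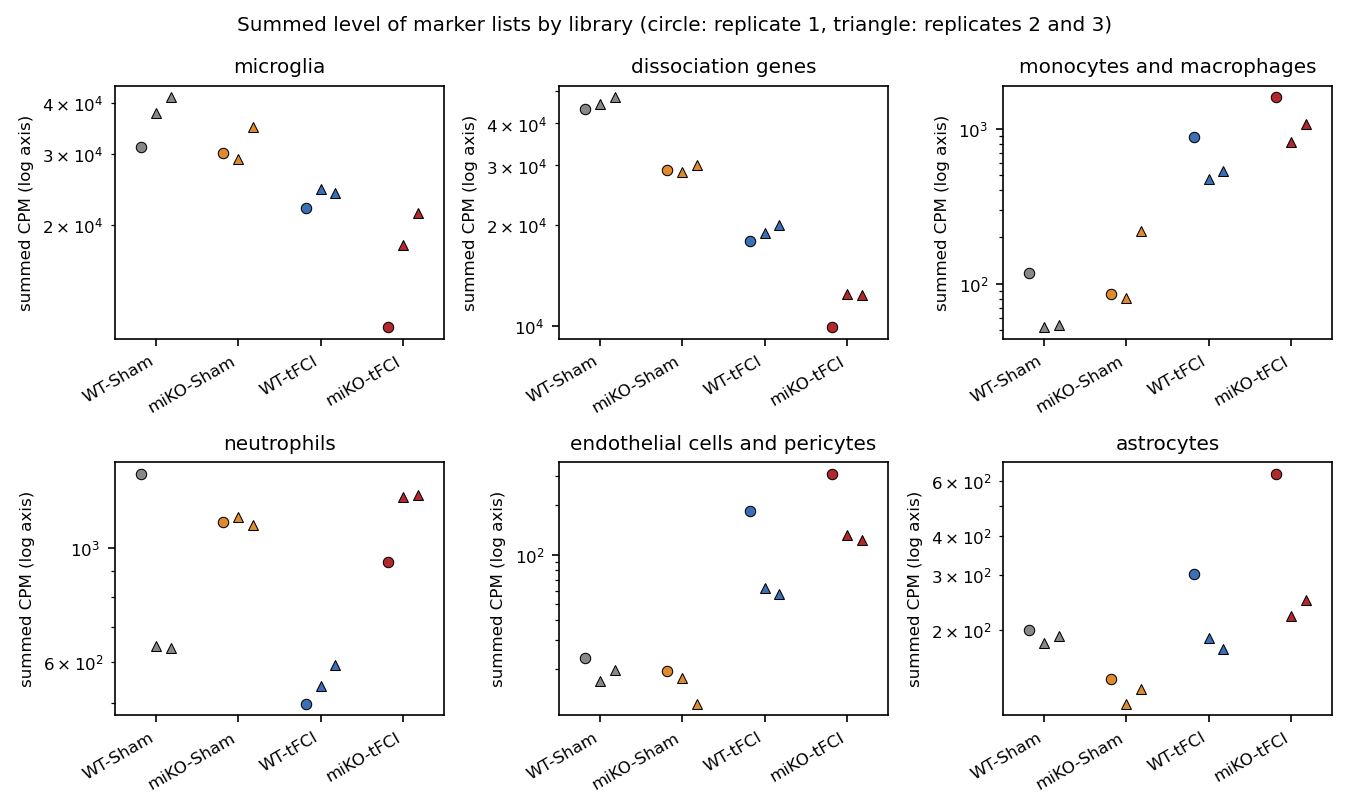
Summed CPM of 6 marker lists in each library, on log axes, with circles for replicate 1 and triangles for replicates 2 and 3. Microglial and dissociation genes are lowest in miKO-tFCI, monocyte and macrophage markers are highest there, and the endothelial and astrocyte sums are highest in replicate 1 of both tFCI groups.

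Likeness to Hmox1 and Srxn1 was measured over the 12 libraries among 9318 genes with a mean of at least 10 CPM. The measure was the root mean square difference of log2 CPM, adjusted for batch and centred per gene. For Hmox1 the nearest genes were Topbp1 at 0.196, Atp6v1a at 0.213 and Tfdp1 at 0.225. For Srxn1 they were Cd300lb at 0.488, Cd93 at 0.489 and Cd300ld at 0.558, all lowest in WT-Sham and highest in miKO-tFCI on average.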

How the data were processed

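Bulk RNA-seq of 12 sorted microglia libraries, 3 per group, was analysed from the deposited gene counts. Per the labels, libraries were made with the SMART-Seq v4 kit and sequenced as paired reads. The submitters' processing notes name FastQC 0.11.9, Trim Galore, HISAT2 2.2.1, SAMtools and HTSeq 1.99.2 with builds mm10 and GRCm38.p6. The authors deposited raw counts per Ensembl gene for each library, not normalized, and rows for reads on no gene were left out of library sizes. Between 30.7% and 38.5% of reads in the files were on genes. Of 55401 identifiers, 55141 had a symbol in GENCODE M21.

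Counts were filtered with edgeR's filterByExpr, scaled by TMM and fitted over all 12 libraries with group and batch in edgeR 4.0.16 (R 4.3.3) by the quasi-likelihood test, with Benjamini-Hochberg adjustment over 16451 genes. log2 CPM used a prior count of 2. Alternatives used DESeq2 1.42.0, its size factors, other filters, no batch term, the replicate number as a block, batch 2 alone and each library left out. The methods state that the authors used DESeq2 and removed batch effects with limma. The code was tested on simulated data. Replicate numbers come from the labels, which do not say that they pair mice, and correlations of same-numbered deviations ranged from -0.0607 to 0.666, so no pairing was used. The labels give 3 libraries per group as separate samples, but the shared library code of miKO-Sham replicates 1 and 2 leaves their independence unsettled. Named genes beyond the 10 were, per comparison, up to 3 called genes of the other pathway genes with the largest rise and up to 3 with the largest fall at 5 CPM or more. Other genes of those lists named in the text were chosen after their values were seen. The 10 genes, the lists and the tests were chosen with earlier results of these data known. The labels name a CytoFLEX SRT sorter and the methods a Cytek Aurora.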

Additional observations from a re-analysis of the deposited data

Results flagged for a closer look

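The interaction of genotype and surgery passed the test of edgeR, with Benjamini-Hochberg adjustment over all genes, for Nfe2l2 and for 10 other genes of the pathway. These calls were easily lost. That of Nfe2l2 was lost without any 1 of 5 libraries, and of the pathway genes 3 were called with no batch term, 4 with miKO-Sham replicates 1 and 2 counted as 1 sample and as few as 3 with 1 library left out. For Nfe2l2 the interaction, the log2 difference of miKO from WT after tFCI minus that in Sham, was -1.16 ± 0.25 (SE, edgeR adjusted p = 0.0189). Among the small MAF and KEAP1-binding genes the interaction was -1.18 ± 0.29 (SE, edgeR adjusted p = 0.0367) for Maff and -0.99 ± 0.22 (SE, edgeR adjusted p = 0.0223) for Sqstm1. Among detoxification genes it was -3.97 ± 0.35 (SE, edgeR adjusted p = 3.99e-05) for Cyp4f18, -0.78 ± 0.19 (SE, edgeR adjusted p = 0.0305) for Akr1a1 and -0.72 ± 0.18 (SE, edgeR adjusted p = 0.0403) for Akr1b3. It was -1.39 ± 0.22 (SE, edgeR adjusted p = 0.00282) for the glutathione transferase Gsto1, -1.12 ± 0.30 (SE, edgeR adjusted p = 0.0494) for Blvrb and -0.78 ± 0.18 (SE, edgeR adjusted p = 0.0259) for Taldo1. Positive values were found for Gpx3, at 2.82 ± 0.64 (SE, edgeR adjusted p = 0.0241), and for the glutathione conjugate exporter Abcc1, at 1.07 ± 0.21 (SE, edgeR adjusted p = 0.00898). For Gpx3 the interaction was 2.76 in batch 1 and 2.33 in batch 2, and its level in miKO-tFCI replicate 1 was 549.8 CPM against 172 and 193.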

How the results depend on the processing

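Each of the 10 genes was refitted in 5 tests under up to 22 alternatives, and 1026 of these values kept direction and side of the threshold, while 24 lost a call, 22 gained one and 12 turned sign, the turned values all belonging to tests that were not called. The number of the 10 genes called stayed within 1.5 times its main value in both stroke and both genotype comparisons. With the replicate block the calls among the 10 genes numbered 6 and 7 for stroke in WT and miKO, 5 and 4 for genotype in Sham and after tFCI and 1 for the interaction, so the block changed no count among them, and since replicate numbers did not pair the samples it is given only as a check. With no batch term, 13 other pathway genes were called in miKO-tFCI against WT-tFCI instead of 27, and leaving out 1 library gave 15 to 29, the low values without WT-tFCI replicates 2 or 3. For the interaction of the pathway genes the count was 3 with no batch term instead of 10, 4 with miKO-Sham replicates 1 and 2 as 1 sample and 3 to 13 with 1 library left out, lower by more than 1.5 times without WT-Sham replicates 2 or 3, miKO-Sham replicates 1 or 2, or WT-tFCI replicates 2 or 3. For the interaction among the 10 genes it was 2 with no filter on low counts, 2 in batch 2 alone and 0 to 2 with 1 library left out, instead of 1. The values that turned sign were Keap1 for stroke in WT, -0.14 to 0.049 with 1 library left out, and the interactions of Hmox1 (-0.17 to 0.39), Sod2 (-0.28 to 0.066) and Prdx1 (-0.32 to 0.075) with 1 library left out, of Prdx1 and Txnrd1 in batch 2 alone (0.071 and 0.078), and of Prdx1 with miKO-Sham replicate 2 moved to batch 1 (0.018) or averaged with replicate 1 (0.084). The cause of these shifts was not tested. Nqo1 had no value under the filter of 10 counts in every library, and the depth of 0 to 122 counts per library limits its folds. No interaction could be had from the groups of 1 comparison alone.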
